A study of Mus musculus with 11 samples.

Results

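The genes described here are 38 genes of cytokine and growth factor signalling, taken as a fixed list of symbols out of the 21883 protein-coding genes that RefSeq annotates on mm10. The rule goes by symbol alone, but the list was drawn up with earlier results of these data known. They comprise 37 receptor genes and Tslp, which encodes a cytokine and not a receptor. A receptor gene was said to have a boundary peak when either gene end had an ATAC-seq peak no more than 1000 bp away, and each peak was also assigned to the protein-coding gene with the nearest end, up to 50 kb away.

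Cytokine receptors are the surface proteins through which a macrophage reads signals from neighbouring cells. Type I and type II cytokine receptors, among them those for interferons and for interleukins of the IL-6, IL-10 and IL-12 groups, pass the signal through Janus kinases to STAT transcription factors. IL-1 family receptors signal through MyD88 and IRAK kinases, and tumour necrosis factor (TNF) receptors through TRAF adaptors. Several chains are shared between receptors, so that 1 gene can serve more than 1 ligand. Alveolar macrophages, the resident macrophages of the air spaces, depend on growth factor signals from the lung for their development and upkeep.

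ATAC-seq, in which a transposase cuts open DNA and tags it for sequencing, was run on alveolar macrophages that had been sorted out of C57BL/6 mouse lungs. The naive group held 4 samples from mice without tumours. The KP day 15 group held 4 samples and the KP day 30 group 3 samples, from mice that had received KP cells, a mouse lung adenocarcinoma line, through the tail vein 15 or 30 days earlier. Such tumours arise from injected cells and not from the animal's own epithelium, and ages and sexes were not given in the labels. The question is how open chromatin in resident macrophages differs between tumour-bearing and healthy lungs. Since the samples of a group share 1 peak list, replicate errors could not be computed, no test between conditions was possible, and kept, lost and gained describe peak calls only. A smaller share of cells with a region open and less opening in each cell cannot be told apart in such data. Nor can either be told apart from a difference in library quality between the groups.

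There were 14731 naive, 10861 day 15 and 3352 day 30 peaks, and the recovered depths were 39.2, 93.5 and 82.2 tags for each 10 kb of genome. The list with the most peaks was thus the shallowest. Its median fold over local background was also the highest, at 6.8 against 5.65 at day 15 and 5.53 at day 30. Tags below are summit pileups as recovered, not scaled for depth. Of 23 pairs of overlapping day 15 and naive peaks assigned to the same receptor gene, the day 15 pileup was above the naive one in 14 as recovered and in 1, a peak before Ifnar2, once scaled to naive depth. Of 16 alveolar macrophage markers, 7 had a naive boundary peak, 4 one at day 15 and 1 one at day 30, and of 10 general macrophage and myeloid markers 8, 7 and 2. The alveolar macrophage markers were together assigned 37, 25 and 5 peaks, those at day 30 belonging to Bhlhe40, Cd9 (2), Chil3 and Pparg. Among these markers Siglecf, Car4 and Fabp4 were assigned no peak in any list, while Marco was assigned 7, 5 and 0. B cell, NK cell, lung epithelial, endothelial and fibroblast markers (6, 5, 8, 5 and 5 genes) had 0 boundary peaks in every list. Peaks farther away were nonetheless assigned to some. NK cell markers were assigned 2 naive, 1 day 15 and 0 day 30 peaks, lung epithelial markers 4, 2 and 0, and endothelial markers 4, 5 and 0. Cd3d was the only one of 8 T cell markers with a boundary peak (naive and day 15). Of 6 monocyte markers Itgam alone had one (naive and day 15). Of 8 neutrophil markers S100a8 had one in every list and Mmp8 had one in the naive and day 15 lists. The part of other cells in the results below was not tested.

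In the naive list 15 of the 38 genes had a boundary peak (39.5%, against 34.7% of all protein-coding genes), 9 had one at day 15 (23.7%, against 29.6%) and 3 at day 30 (7.89%, against 12.8%). Those present in all 3 lists were Ifnar1, Ifngr1 and Tnfrsf21. A further 6, Il1rap, Il6st, Il12rb2, Il10rb, Il17ra and Il17rc, were in the naive and day 15 lists, and the last 6, Ifnar2, Ifngr2, Il21r, Il6ra, Il27ra and Ltbr, in the naive list only. At day 15, 9 of 15 naive genes were kept (60.0%, 95% Wilson interval 35.7 to 80.2), against 79.6% of all naive genes, and the interval, which covers counting error over genes only, includes that share. The order turned with the distance allowed: within 2000 bp of a gene end 14 of 17 naive genes were kept at day 15 and 3 lost, a larger share kept than the 79.6% of all genes. A gene counted as kept by any peak near either end. Among the 14 were Ifnar2, Ifngr2 and Il6ra, whose naive peaks within 1000 bp overlapped no day 15 peak. Csf3r and Il10ra, with no peak within 1000 bp, were also among them. With the highest 3352 peaks of each list, 4 of the genes had a naive boundary peak, of which 3 were kept at day 15 (76.4% of all genes) and 2 at day 30 (67.9%). At day 30, with all peaks and 1000 bp, 3 of 15 were kept (interval 7.05 to 45.2%), against 36.5% of all genes. The lost genes thus numbered 6 at day 15, against a background of 20.4%, and 12 at day 30, against 63.5%. None of the 23 genes without a naive boundary peak gained one at day 15 or day 30. A count of 0 allows a share of up to 13.0%, so the 3.04% of all such genes that gained one at day 15 and the 0.245% at day 30 could not have been told from 0. Between the later lists 3 of the 9 day 15 genes were kept at day 30, 6 were lost and 0 gained, where 42.1% of all day 15 genes were kept, 57.9% lost and 0.506% of the others gained.

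**Figure D1:**
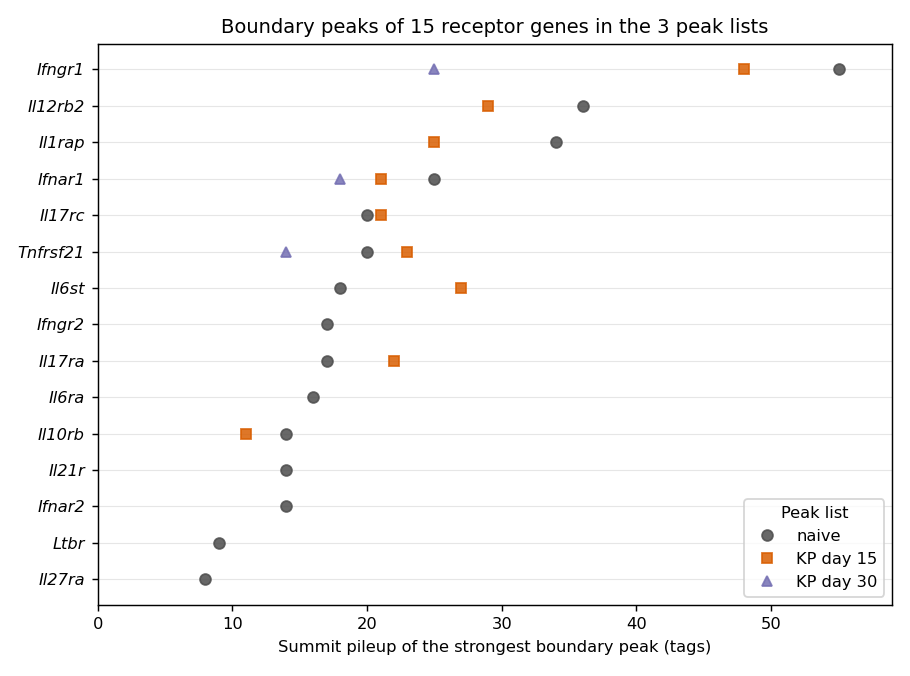
Summit pileup, in tags, of the strongest boundary peak of the 15 genes that had one, with 1 point for each peak list (naive, KP day 15, KP day 30) and no error bars since each group has 1 list. A missing point means that the list holds no boundary peak there; Ifngr1, Ifnar1 and Tnfrsf21 alone have all 3 points, and Ifngr1 is the highest with 55, 48 and 25 tags.

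The naive peaks of these genes were somewhat weaker than those of all genes, with a median −log10 p of 12.2 against 15.2 and a median summit pileup of 17 against 19 tags. Over all genes the share kept went with naive strength: in the weakest decile of naive boundary peaks by −log10 p 39.9% of genes were kept at day 15 and 5.0% at day 30, and in the strongest decile 99.7% and 91.7%. Genes of equal naive strength would give 11.3 kept genes at day 15 where 9 were seen, and 4.74 at day 30 where 3 were seen. All 6 genes lost at day 15 lay in the weakest 4 deciles, and the kept ones in deciles 3 to 10. Within decile 3, where 64.7% of all genes were kept, Il17ra was kept while Ifngr2 and Il21r were lost. Decile 4, with 73.4% kept, held Il10rb and Ifnar2, both placed there by 1 naive peak that lies near an end of each. At day 30 the lost genes with the strongest naive peaks were Il1rap and Il12rb2, both in decile 9, where 71.8% of all genes were kept. Tnfrsf21, in decile 6 with 37.9% kept, was the weakest naive peak of the 3 genes kept at day 30.

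**Figure D2:**
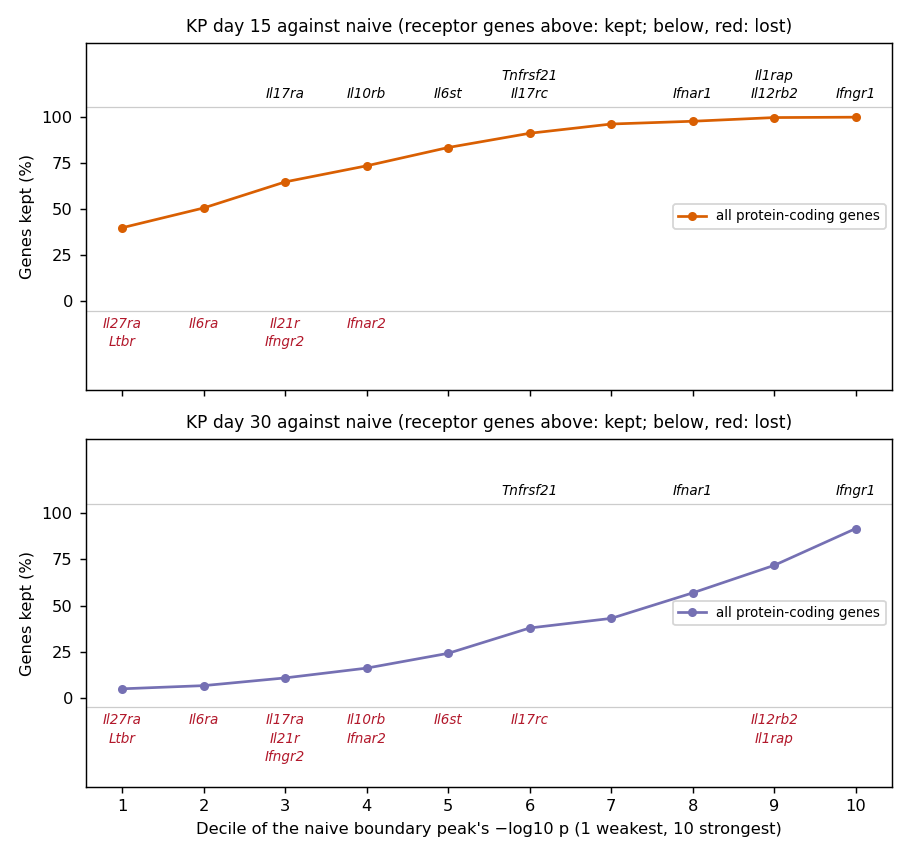
Share of all protein-coding genes with a naive boundary peak that had one at KP day 15 (upper panel) and KP day 30 (lower panel), in percent, by decile of the naive peak's −log10 p. Names stand at the decile of each of the 15 genes, above the line where kept and below it, in red, where lost; at day 15 the lost names lie in deciles 1 to 4.

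All 4 interferon receptor genes had a naive boundary peak, and 1 chain of each receptor kept it within 1000 bp. This contrast depended on the settings: within 2000 bp all 4 genes were kept at day 15, and with lists of equal length Ifnar1 was the gene lost at day 15. Neither Ifnar2 nor Ifngr2 had a day 15 peak within 1000 bp of its start, however. The wider window took in day 15 peaks near their 3′ ends, that of Ifnar2 being a peak assigned to Il10rb. Ifngr1 encodes the chain that binds interferon gamma, and its peak across the start of the gene was the strongest of the 38 genes: chr10:19591453-19592313 in the naive list with 55 tags, chr10:19591409-19592289 at day 15 with 48 tags, and chr10:19591592-19592079 at day 30 with 25 tags. Ranked within its own list by −log10 p, it stood at percentile 99.1, 98.8 and 88.4. Its partner Ifngr2, the signalling chain of the same receptor, had 3 naive peaks around its start (chr16:91546572-91546771, 91547005 to 91547218 and 91547297 to 91547579) with 17, 13 and 14 tags, and none at either later time. The only other peak assigned to Ifngr2 lay inside the gene, with 12 tags at day 15 (5.03 scaled to naive depth), 1.63 kb from the 3′ end, against 8 tags in the naive list, 1.73 kb from it.

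Ifnar1, a chain of the type I interferon receptor, had a peak across its start in all lists, with 25 naive tags (chr16:91484832-91485262), 21 tags at day 15 (chr16:91484863-91485549) and 18 tags at day 30 (chr16:91484919-91485203). The day 15 peak was the widest, at 687 bp against 431 bp in the naive list. Ifnar2, which encodes the other chain, had a weaker naive peak on its start (chr16:91372738-91373143, 10 tags) and none there later. A second naive boundary peak counted for Ifnar2, with 14 tags, lay 0.531 kb beyond its 3′ end and across the lower end of Il10rb, so it is 1 peak counted for both genes. An internal Ifnar2 peak, 7.13 kb from the 3′ end, was present at day 15 with 15 tags (6.29 scaled) and in the naive list with 10 tags.

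These chains share a genomic neighbourhood: Ifnar2, Il10rb, Ifnar1 and Ifngr2 lie within 191.2 kb of chromosome 16. Together they were assigned 14 naive, 6 day 15 and 1 day 30 peaks, the last being the peak on the start of Ifnar1. At day 15 a peak 17.2 kb before Ifnar2 had 22 tags (9.23 scaled), against 8 tags for the naive peak it overlapped. Another day 15 peak, 12.5 kb beyond Ifnar1 with 17 tags, overlapped no naive peak but lay 240 bp from one.

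**Figure D3:**
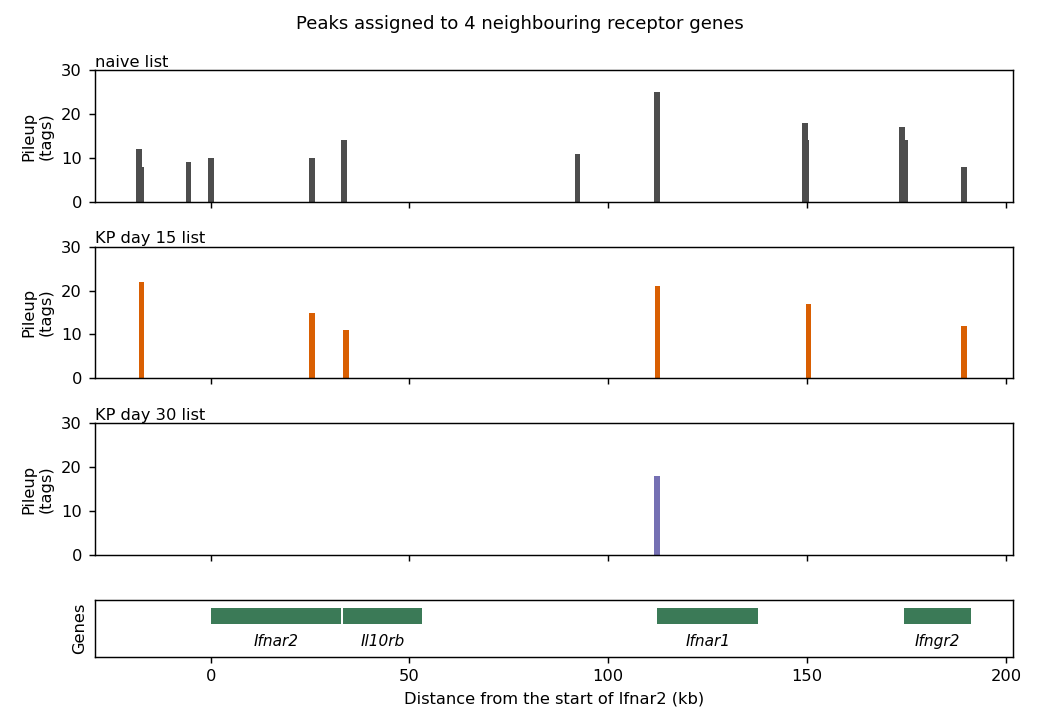
Summit pileup, in tags, of the peaks assigned to Ifnar2, Il10rb, Ifnar1 and Ifngr2, by distance in kb from the start of Ifnar2, with 1 panel per list in the order naive, KP day 15, KP day 30 and the genes drawn below. There are 14 bars in the naive panel, some touching, 6 at day 15 and 1 at day 30, the last on the start of Ifnar1.

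The 250 bases before the RefSeq start (GRCm38.p6, the build of mm10) are shown for the 3 genes kept throughout and, chosen after their values were seen, for Ifngr2 and Il21r, whose peaks on the start were in the naive list only. Capitals mark matches, on either strand, to any of these motifs: GC box (GGGCGG), ETS (CCGGAAG), PU.1 (GAGGAAG), interferon response element (GAAANNGAA), AP-1 (TGANTCA), NF-kB (GGANTTTCC), C/EBP (TTGCNNAA) and CCAAT box (CCAAT). The windows are chr16:91484965-91485214 (Ifnar1), chr10:19591699-19591948 (Ifngr1), chr17:43016305-43016554 (Tnfrsf21), chr16:91546809-91547058 (Ifngr2) and chr7:125603179-125603428 (Il21r), all on the plus strand.
Ifnar1: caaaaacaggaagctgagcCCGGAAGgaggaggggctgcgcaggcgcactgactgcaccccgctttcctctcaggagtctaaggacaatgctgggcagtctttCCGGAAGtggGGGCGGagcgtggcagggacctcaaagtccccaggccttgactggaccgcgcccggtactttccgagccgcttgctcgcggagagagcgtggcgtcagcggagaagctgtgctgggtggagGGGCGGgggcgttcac
Ifngr1: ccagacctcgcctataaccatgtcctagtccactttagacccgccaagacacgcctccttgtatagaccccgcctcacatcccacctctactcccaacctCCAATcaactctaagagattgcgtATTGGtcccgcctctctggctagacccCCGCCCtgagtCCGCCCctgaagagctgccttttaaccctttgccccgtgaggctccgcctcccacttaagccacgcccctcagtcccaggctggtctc
Tnfrsf21: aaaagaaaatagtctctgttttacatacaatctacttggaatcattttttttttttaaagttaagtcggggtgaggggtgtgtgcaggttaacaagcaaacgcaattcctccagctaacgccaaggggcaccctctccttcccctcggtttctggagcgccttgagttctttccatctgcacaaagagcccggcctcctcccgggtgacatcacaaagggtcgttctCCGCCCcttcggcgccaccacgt
Ifngr2: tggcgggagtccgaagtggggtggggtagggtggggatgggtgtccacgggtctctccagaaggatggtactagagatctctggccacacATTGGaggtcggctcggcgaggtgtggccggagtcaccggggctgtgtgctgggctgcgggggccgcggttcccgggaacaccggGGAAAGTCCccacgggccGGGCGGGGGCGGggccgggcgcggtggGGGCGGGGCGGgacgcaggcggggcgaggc
Il21r: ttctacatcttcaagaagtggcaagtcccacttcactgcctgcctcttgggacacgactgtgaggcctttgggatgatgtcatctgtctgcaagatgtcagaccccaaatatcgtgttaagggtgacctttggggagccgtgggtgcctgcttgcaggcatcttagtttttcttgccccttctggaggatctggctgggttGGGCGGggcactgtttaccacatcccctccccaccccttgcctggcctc
In the Ifnar1 window 2 GC boxes and 2 ETS matches were found, in Ifngr1 2 GC boxes and 2 CCAAT boxes, in Tnfrsf21 1 GC box and in Il21r 1 GC box. Ifngr2 had 4 GC boxes in adjoining or overlapping pairs, 1 CCAAT box and 1 NF-kB match, a motif found in 1.03% of 17491 promoters. A match is a run of letters and not a measured binding site.

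IL-6 and IL-12 type receptors formed the largest group, with 10 genes. Of these 4 had a naive boundary peak, 2 a day 15 one and 0 a day 30 one. Among all protein-coding genes 34.7%, 29.6% and 12.8% had one in these lists. Whether so small a group differs from these shares was not tested. Il6st encodes gp130, the signalling chain shared by IL-6, IL-11, leukaemia inhibitory factor and oncostatin M receptors. At its start the peak had 27 tags at day 15 (chr13:112463856-112464264) and 18 in the naive list (chr13:112463639-112464193). Scaled to naive depth the day 15 pileup was 11.3 tags, 0.629 times the naive value, which was the highest such ratio among the 9 kept genes. Il6ra, the chain that binds IL-6, lost the 16-tag peak on its start (chr3:89913046-89913389). A second Il6ra peak, 1.61 kb inside the gene at day 15 and thus beyond the boundary, was present at day 15 with 24 tags (10.1 scaled) and in the naive list with 20 tags.

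Il12rb2, the signalling chain of the IL-12 receptor, had a strong peak on its start, with 29 tags at day 15 (chr6:67375846-67376393) and 36 in the naive list (chr6:67375837-67376395), and none at day 30. For Il12rb1, the chain shared by IL-12 and IL-23 receptors, the single assigned peak was at day 15, 1.5 kb outside the gene with 17 tags (7.13 scaled). Il27ra, a chain of the IL-27 receptor, had a naive peak of 8 tags (chr8:84042349-84042572), the weakest of the 15 genes, and Rln3 also has an end within 1000 bp of it. Lepr, the leptin receptor gene, had no boundary peak but was assigned 3 peaks at day 15 and 2 in the naive list. In Il31ra, which encodes a receptor chain for IL-31, the day 15 peak (chr13:112578107-112578388, 22 tags, 9.23 scaled) lay 2.34 kb inside the 5′ end. The only naive peak assigned to Il31ra, of 9 tags, was 47.9 kb away near the other end. Lifr had 1 naive peak, 5.17 kb outside the gene with 12 tags, and Osmr and Il11ra1 were assigned no peak in any list.

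Among the IL-1 and IL-18 family, Il1rap alone had a boundary peak. It encodes the accessory chain that IL-1, IL-33 and IL-36 receptors share. Its peak near the start had 25 tags at day 15 (chr16:26581531-26581884) and 34 tags in the naive list (chr16:26581434-26581896), and a peak deep inside the gene had 20 tags at day 15 and 19 in the naive list. Neither was in the day 30 list. The other members of the family lie together on chromosome 1, where Il1r2, Il1r1, Il1rl2, Il1rl1, Il18r1 and Il18rap span 467.0 kb. That stretch had 4 naive peaks, 2 assigned to Il1r1 and 2 to Il1rl2 with 9 to 17 tags, and 0 at day 15 and day 30. Il1r2 (the decoy receptor for IL-1), Il1rl1 (the IL-33 receptor ST2), Il18r1 and Il18rap were assigned no peak in any list.

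Il10rb, a chain shared by the IL-10 receptor and others, counted as kept at day 15, but the peaks were different ones. The day 15 peak (chr16:91406804-91407003, 11 tags) lay 0.647 kb inside the gene, and the naive peak (chr16:91406120-91406449, 14 tags) lay across its lower end, 354 bp away. Without this gene 8 of 15 were kept with overlapping peaks. Il10ra, the chain that binds IL-10, was assigned a single peak, at day 15, 1.11 kb outside the gene with 19 tags, which overlapped a naive peak assigned to another gene.

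Both IL-17 receptor genes were kept at day 15 by a peak at the upper end. Il17ra, the chain shared by IL-17 family receptors, had naive peaks at both ends. That at the lower end (chr6:120463127-120463500, 11 tags) was absent at day 15, and that at the upper end had 22 tags, or 9.23 scaled, at day 15 (chr6:120483118-120483581) and 17 in the naive list (chr6:120483037-120483539). In all, Il17ra was assigned 3 peaks at day 15 and 5 in the naive list. Il17rc, its partner chain, had a peak across its 3′ end with 21 tags at day 15 (chr6:113483123-113483444) and 20 tags in the naive list (chr6:113483124-113483541). Creld1 also has an end within 1000 bp of that peak, and the RefSeq start of Il17rc lies 11.7 kb away. Which of the genes the peak belongs to was not tested.

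Tnfrsf21, which encodes death receptor 6 of the TNF receptor superfamily, was the only one of the 38 genes with 3 assigned peaks in every list. The peak on its start had 20 naive tags (chr17:43016378-43016924), 23 tags at day 15 (chr17:43016401-43016871) and 14 tags at day 30 (chr17:43016472-43016873). A broad peak 48.7 kb beyond the 3′ end had 36 tags in the naive list (chr17:43137846-43138760) and 27 at day 15 (chr17:43137834-43138703), and was called as separate peaks of 16 and 15 tags at day 30. An internal peak 19.7 kb from the start had 24 tags at day 15 and 23 in the naive list, and was not called at day 30. Ltbr, the lymphotoxin beta receptor gene, had a naive peak of 9 tags on its start (chr6:125313855-125314054), and Scnn1a also has an end within 1000 bp of it. Tnfrsf1b, which encodes TNF receptor 2, had an internal peak, 5.63 kb from its start at day 15, with 28 tags at day 15 (11.75 scaled) and 26 in the naive list. A second Tnfrsf1b peak lay outside the gene at day 15 only, with 18 tags (7.55 scaled). Tnfrsf1a, which encodes TNF receptor 1, Tnfrsf9 and Cd40 were assigned no peak in any list.

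Of the remaining genes, Csf1r, the receptor for the macrophage growth factor CSF-1, had no boundary peak. It had 1 peak inside the gene, 2.96 kb from the lower end at day 15, with 19 tags at day 15 and 21 in the naive list, and none at day 30. Csf3r, the receptor for the neutrophil growth factor G-CSF, had no boundary peak and no assigned peak, though within 2000 bp of its ends the naive and day 15 lists each held a peak. Il4ra, the chain shared by IL-4 and IL-13 receptors, had 2 peaks inside the gene, 3.17 and 9.11 kb from its start at day 15. They had 25 and 23 tags at day 15 (10.5 and 9.65 scaled) and 25 and 15 tags in the naive list, and neither was called at day 30. The neighbouring Il21r lost its single peak (chr7:125603381-125603673, 14 naive tags). Il7r, Il15ra and Tslp were assigned no peak in any list.

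Counted over peaks, the 38 genes were assigned 48 naive, 31 day 15 and 5 day 30 peaks, spread over 25 genes, of which 10 had no boundary peak. The other 13 genes were assigned no peak in any list: either no peak lay within 50 kb of an end, or any that did was assigned to another gene. Of the 48 naive peaks 23 overlapped a day 15 peak by at least 1 bp (47.9%, Wilson interval 34.5 to 61.7), against 65.8% of all naive peaks assigned to a gene, and at equal naive −log10 p 27.9 would be expected. At day 30 4 were overlapped (8.33%, 3.29 to 19.6), against 23.2%, with 8.78 at equal strength. By place, of 18 naive boundary peaks 8 overlapped a day 15 peak (44.4%, against 75.1% of all), while of 30 peaks farther away 15 did (50.0%, against 54.9%). Of the 31 day 15 peaks 7 overlapped no naive peak (22.6%, against 12.2% of all), and these were assigned to Ifnar1, Il12rb1, Il31ra, Lepr (2 peaks), Il10rb and Tnfrsf1b. Peaks of 1 gene or neighbourhood are not independent. Of the 31 day 15 peaks 4 overlapped a day 30 peak (12.9%, against 30.2% of all), and 0 of the 5 day 30 peaks lacked a naive overlap (3.45% of all did).

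**Figure D4:**
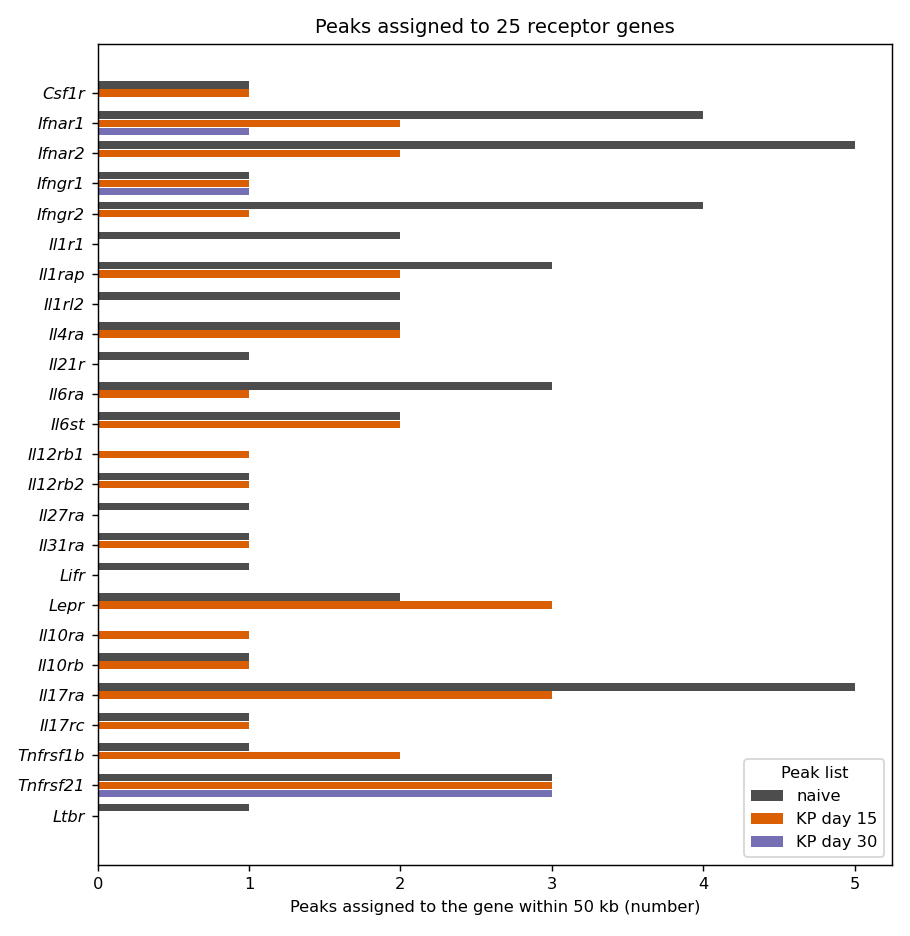
Number of peaks assigned to each of the 25 genes with at least 1 assigned peak, with bars from top to bottom for the naive, KP day 15 and KP day 30 lists. Tnfrsf21 has 3 peaks in every list, Ifnar2 and Il17ra have the most in the naive list with 5 each, and Ifnar1, Ifngr1 and Tnfrsf21 are the genes with a day 30 bar.

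Pileups can be set side by side only after allowing for depth, which was 2.38 times the naive value at day 15 and 2.1 times at day 30. Scaled to naive depth, the strongest boundary peak was lower at day 15 than in the naive list for all 9 kept genes, with a median ratio of 0.366 and a range of 0.309 (Il1rap) to 0.629 (Il6st). The same held for 99.6% of the 6039 genes kept at day 15, whose median ratio was 0.439 with quartiles of 0.364 and 0.531. At day 30 the ratios over naive were 0.217 for Ifngr1, 0.344 for Ifnar1 and 0.334 for Tnfrsf21, against a median of 0.29 for 2767 kept genes.

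Promoter sequence was at hand for 30 of the 38 genes. For 11 of the 12 of them with a naive boundary peak, that peak covered a RefSeq start, Il17rc being the exception. The 250 bases before the start held a median of 18 CpG dinucleotides in the 5 genes with a naive peak only, 18 in the 4 with naive and day 15 peaks and 12 in the 3 with a peak in all lists, against medians of 15, 17 and 19 for all protein-coding genes of these classes. The 18 genes with no boundary peak had a median of 4, as had all such genes, with Lifr the highest at 43. GC boxes were found in 13 of 30, against 43.0% of all promoters, and CCAAT boxes in 9, against 36.4%. ETS, PU.1 and C/EBP letters were each found in 4, against 9.24%, 10.1% and 9.07%, interferon response element letters in 3, against 6.85%, and AP-1 letters in 0, against 6.19%. NF-kB letters were found in 3, against 1.03%, in Ifngr2 and in Il1rl2 and Il18rap, which had no boundary peak.

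**Figure D5:**
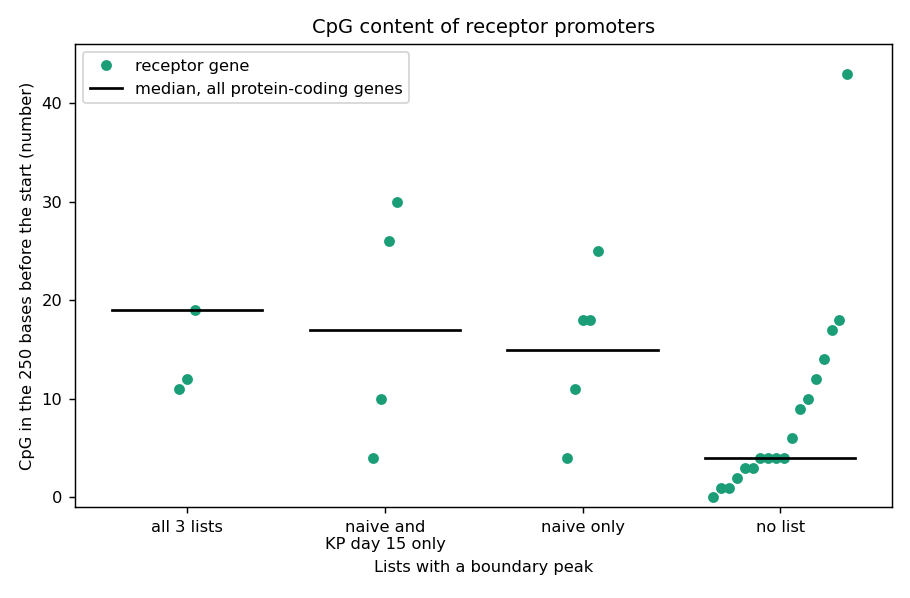
Number of CpG dinucleotides in the 250 bases before the RefSeq start of 30 genes, 1 point per gene, by the lists in which the gene had a boundary peak; black lines are medians over all protein-coding genes of the same class (19, 17, 15 and 4 from left to right). The 18 genes without a boundary peak have a median of 4 and reach 43 at Lifr.

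Other genes of the same pathways were read in 3 lists. Of 59 further receptor genes 13 had a naive boundary peak (22.0%), 9 one at day 15 (15.3%) and 0 one at day 30. Over all genes the shares were 34.7%, 29.6% and 12.8%. At day 15 8 of the 13 were kept (61.5%, against 79.6% of all genes), where 8.88 would be at equal naive strength. At day 30 0 were kept (36.5% of all), where 2.92 would be. Crlf3, Fas, Tnfrsf18 and Tnfrsf23 were among the 5 lost at day 15 and Tnfrsf22 was gained. Csf2ra and Csf2rb, the chains of the GM-CSF receptor, had 23 and 20 tags at day 15 and 24 and 13 tags in the naive list. These tags were not scaled for depth, which was 2.38 times the naive value at day 15. With Il3ra and Il9r both genes were among the 13 lost at day 30. Of 49 ligand genes 8, 3 and 0 had a boundary peak (16.3%, 6.12% and 0.0%, against 34.7%, 29.6% and 12.8% of all genes). Of the 8, 3 were kept at day 15 (37.5%, against 79.6% of all genes) and 0 at day 30 (36.5% of all). At equal strength 4.92 would be kept at day 15 and 0.917 at day 30. Csf1, Il15, Il12b and Lta were lost at day 15, and Il7, Il18 and Tnf were kept. The naive boundary peak counted for Lta was assigned to another gene, and at 16 tags it equalled that of Tnf.

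Of 54 signal transducer genes 42 had a naive boundary peak (77.8%), 35 one at day 15 (64.8%) and 14 one at day 30 (25.9%). Over all protein-coding genes the shares were 34.7%, 29.6% and 12.8%. Of the 42, 33 were kept at day 15 (78.6%, against 79.6% of all genes), where 35.4 would be at equal naive strength. At day 30, 14 were kept (33.3%, against 36.5% of all genes), where 17.1 would be. Lost at day 15 were, among 9, the feedback inhibitor genes Socs1, Socs6 and Socs7 and also Pias2, and Pias1 and Traf4 were gained. The feedback inhibitor genes Socs2, Socs3, Socs4, Socs5 and Cish were kept at day 15, as were Pias3 and Pias4. Lost at day 30 were, among 28, the kinase genes Jak1 and Tyk2 and their target Stat2. Kept in all lists were, among 13 and named after their values were seen, Jak2, Stat3 and the adaptor gene Myd88, the last with 40, 37 and 26 tags. Pathway genes downstream of the receptors thus had boundary peaks more often than the 38 genes (39.5%, 23.7% and 7.89%) in each list, by count and with no test.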

How the data were processed

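One peak list per group was used: naive (4 samples), KP day 15 (4) and KP day 30 (3). Bowtie2 2.3.4.1, MACS2 2.1.1 and mm10 were named, per the submitters' processing notes. Settings, read filters, transposase shifting and whether samples were pooled before calling are not given in the sources used here. Triplicates are named in the design text, but sample labels give 4, 4 and 3. The lists have no headers, so the meaning of columns was taken from the values. In the deposited lists the score equals 10 times the q-value on the −log10 scale, cut to a whole number. The deposited columns also hold each summit's fold over its local background (a ratio) and its p-value as −log10. These are the authors' values and describe peaks within their list. Pileup and local background were recovered from the fold (both terms raised by 1) and from p as the upper Poisson tail, within 0.001 for every peak. The background floor of a list gives its depth, with tags taken as 200 bp. Recovery was tested on simulated fold and p values made with the same assumed formula, so that test does not check the formula itself. Interval counting was compared with the program bedtools on a random sample of annotated genes and the naive peaks.

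Gene positions, and promoter sequences for 30 members, came from RefSeq (GRCm38.p6). Python 3.11.15, numpy 2.4.6, pandas 2.3.3 and scipy 1.17.1 were used. Equal-strength numbers sum, over genes, the share kept among all genes in the same decile of naive −log10 p. Every gene with a boundary peak was named, and of the other pathway lists up to 4 lost and 4 gained genes per comparison, in list order. Gene, pathway and marker lists were chosen with earlier results of these data known. Il36rn and Trac had no match in the annotation. Coordinates are 1-based. One pathway gene and one motif are not reported here.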

Additional observations from a re-analysis of the deposited data

How the results depend on the processing

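Of 72 recomputed values under 12 alternative settings, 58 stayed within 1.5 times the reported count (or, for numbers at equal strength, within the interval), and 14 did not. With the boundary at 2000 bp, 15 genes had a day 15 peak and 14 of 17 naive genes were kept, against 79.6% of all genes. Then 3 (Il21r, Il27ra and Ltbr) were lost and 1 (Il12rb1) was gained, so the number of genes lost at day 15 depends on that distance. Ifnar2, Ifngr2 and Il6ra were then kept by other peaks than their naive ones within 1000 bp. At 500 bp 8 of 15 were kept at day 15, against 79.3% of all genes. With the highest 3352 peaks of each list, 4 genes had a day 15 and 4 a naive boundary peak. Then 3 were kept at day 15 (76.4% of all genes), 1 was lost (Ifnar1) and 1 gained (Il6st), and at day 30 2 of 4 were kept (67.9% of all genes) and 1 gained (Tnfrsf21), and 8 peaks within 50 kb were assigned at day 15 and 8 in the naive list. Within 20 kb, 3 day 30 peaks were assigned. When peaks near another gene's end were not counted, an alternative chosen after seeing the data, 1 gene (Il10rb) was gained at day 15, 11 had a naive peak and 7 were kept. Recovered depth was lowest in the naive list, and no setting matched depth between lists. No paired analysis was possible because each group has 1 list, and for the same reason no replicate could be left out.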
